A study of Mus musculus with 2 samples.

Results

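The interferon-stimulated genes described here are a list of 34 mouse genes chosen by name, of which 29 had a probe set of their own among the 12393 genes that could be named on the arrays. The list sets genes of type I interferon responses (Isg15 and the Ifit, Oas and Mx genes, 12 in all) against genes of interferon-gamma responses (Gbp2, Gbp3, Gbp4, Igtp, Irgm1 and Irf1, 6 in all), and the other 16 belong to neither group. They were measured in the back skin of mice aged 10 days. 1 array held RNA of transgenic mice with a constitutively active aryl hydrocarbon receptor (AhR), a transcription factor that normally needs a ligand, in their keratinocytes, and 1 array held RNA of non-transgenic wild-type littermates. The labels name the transgenic sample K14Ahr and limit the transgene to keratinocytes, and they state neither the strain nor whether an array held 1 animal or a pool. The whole skin was taken, so its other cell types carried no transgene by the label but contributed RNA. With 1 array per genotype there was no replicate error and no test, and each value compares these 2 arrays only.

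Type I interferons bind a receptor made of Ifnar1 and Ifnar2, whose kinases Jak1 and Tyk2 activate Stat2 as part of a complex. With Irf9 it binds the interferon-stimulated response element (ISRE) of antiviral genes. Interferon gamma acts through Ifngr1, Ifngr2, Jak1 and Jak2, and leads to factor binding at the gamma-activated site (GAS), as in the promoter of Irf1. In skin, keratinocytes and resident leukocytes both express such genes, and interferon is known for its part in defence against viruses and in inflammatory skin disease.

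The promoters below show where elements known from both kinds of interferon response lie, in 3 genes of the type I group, 3 of the gamma group and Ifitm3, the member with the highest log2 ratio among those with a signal above background on both arrays. Each sequence runs from 150 bases before to 30 bases after the annotated transcript start, was taken from RefSeq (build GRCm38.p6) and is written 5′ to 3′ on the strand of the gene. The windows lie at chr19:34640739-34640918 (plus strand) for Ifit1, chr5:120907496-120907675 (minus) for Oas1a, chr5:120777630-120777809 (minus) for Oas3, chr11:53769864-53770043 (plus) for Irf1, chr3:142620513-142620692 (plus) for Gbp2, chr11:58199406-58199585 (plus) for Igtp and chr7:141010715-141010894 (minus) for Ifitm3. Capitals mark matches to the ISRE core GAAANNGAA on either strand or to the GAS pattern TTCNNNGAA, which reads the same on both strands. Matches may overlap and then form 1 run of capitals.
Ifit1: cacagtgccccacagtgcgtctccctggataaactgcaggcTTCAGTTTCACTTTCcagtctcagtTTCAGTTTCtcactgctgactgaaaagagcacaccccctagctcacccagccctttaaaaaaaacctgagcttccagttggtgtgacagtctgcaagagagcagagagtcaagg
Oas1a: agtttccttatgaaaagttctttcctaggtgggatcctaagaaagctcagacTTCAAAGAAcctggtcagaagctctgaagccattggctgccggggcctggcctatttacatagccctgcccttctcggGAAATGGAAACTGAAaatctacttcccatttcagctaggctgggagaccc
Oas3: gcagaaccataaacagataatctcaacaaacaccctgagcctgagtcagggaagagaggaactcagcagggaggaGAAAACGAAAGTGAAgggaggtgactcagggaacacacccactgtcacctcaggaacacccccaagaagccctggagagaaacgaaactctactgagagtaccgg
Irf1: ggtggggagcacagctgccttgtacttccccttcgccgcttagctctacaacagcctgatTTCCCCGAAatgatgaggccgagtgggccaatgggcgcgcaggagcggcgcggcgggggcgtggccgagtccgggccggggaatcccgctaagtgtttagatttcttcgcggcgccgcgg
Gbp2: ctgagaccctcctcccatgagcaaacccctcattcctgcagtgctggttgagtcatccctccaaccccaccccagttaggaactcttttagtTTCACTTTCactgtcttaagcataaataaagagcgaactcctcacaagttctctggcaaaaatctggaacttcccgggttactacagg
Igtp: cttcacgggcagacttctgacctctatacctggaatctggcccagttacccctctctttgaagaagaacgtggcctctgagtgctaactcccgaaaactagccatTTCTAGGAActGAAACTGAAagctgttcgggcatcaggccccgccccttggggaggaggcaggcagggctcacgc
Ifitm3: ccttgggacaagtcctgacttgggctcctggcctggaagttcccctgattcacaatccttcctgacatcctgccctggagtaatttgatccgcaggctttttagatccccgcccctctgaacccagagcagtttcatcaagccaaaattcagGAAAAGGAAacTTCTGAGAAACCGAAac

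Ifit1, whose product binds foreign RNA, held 3 ISRE matches, which began 109, 103 and 84 bases before the start. Oas3 held a pair that began 75 and 69 bases before it, and Oas1a a pair at 20 and 14 bases with a GAS match at 98 bases. Irf1 has 2 annotated promoters, and the one shown was chosen because it held a GAS match, 90 bases before the start. The other held no GAS match, and neither held an ISRE match. Gbp2 held 1 ISRE match at 58 bases and no GAS match in this window, and Igtp held both patterns, at 34 and 45 bases. In Ifitm3 all marked matches lay after the annotated start, with ISRE matches at 2 and 19 bases and a GAS match at 13 bases that overlaps the second of them. A promoter of 300 bases (250 before and 50 after the start) was at hand for 25 members. Of these, 17 held an ISRE match, against 9.76% of all 27025 genes with such a promoter. In the type I group the ISRE was found in 6 of 9, and in the gamma group in 4 of 5. A GAS match was found in 8 of the 25, against 9.55% of all genes, with 2 of the 9 and 2 of the 5. Neither pattern was confined to 1 of the groups in these windows. The core of the AhR response element, GCGTG on either strand, was found in 11 of the 25 and in 35.2% of all genes. A match is a description of the letters and shows no binding.

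Of the interferon-stimulated genes with a signal on both arrays, Ifitm3 was the 1 that differed by 2-fold or more. Signals are linear intensities in arbitrary units, and readings under a floor of 34.7, the 40th percentile of all signals, were treated as not distinguishable. Of the 29 members with a probe set of their own 20 passed it on at least 1 array, against 71.8% of all genes. Among the 29, 15 lay above the floor on both arrays, 5 on the transgenic array only, none on the wild-type array only and 9 on neither. Among all measured genes, those above the floor on at least 1 array, 4.89% passed it in transgenic skin only and 5.48% in wild-type skin only. Ifitm3 was the 1 member of 20 measured that was at least 2-fold higher, a call that 2.27% of all 8894 measured genes reached. Above the floor on both arrays it was 1 of 15, against 2.03% of all such genes. None was at least 2-fold lower, against 1.09% of all measured genes. Of the 15 members above the floor on both arrays, 9 read higher on the transgenic array and 6 lower, against 43.2% higher among all such genes. Within 1.2-fold of equality lay 9 of the 15, beside 58.0% of all such genes. The median log2 ratio (transgenic over wild type) was 0.14 over these 15 and -0.05 over all 7972 genes above the floor on both arrays. The 5 members above the floor on the transgenic array only had to differ in that direction, so no count that includes them is evidence of a shift. As a technical measure of error, the log2 ratios of 2 probe sets of a gene gave an SD of 0.27 per probe set over 1764 genes, and of 0.30 over the 590 genes with signals under 100. This SD covers measurement within these arrays and not the spread between animals.

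**Figure D1:**
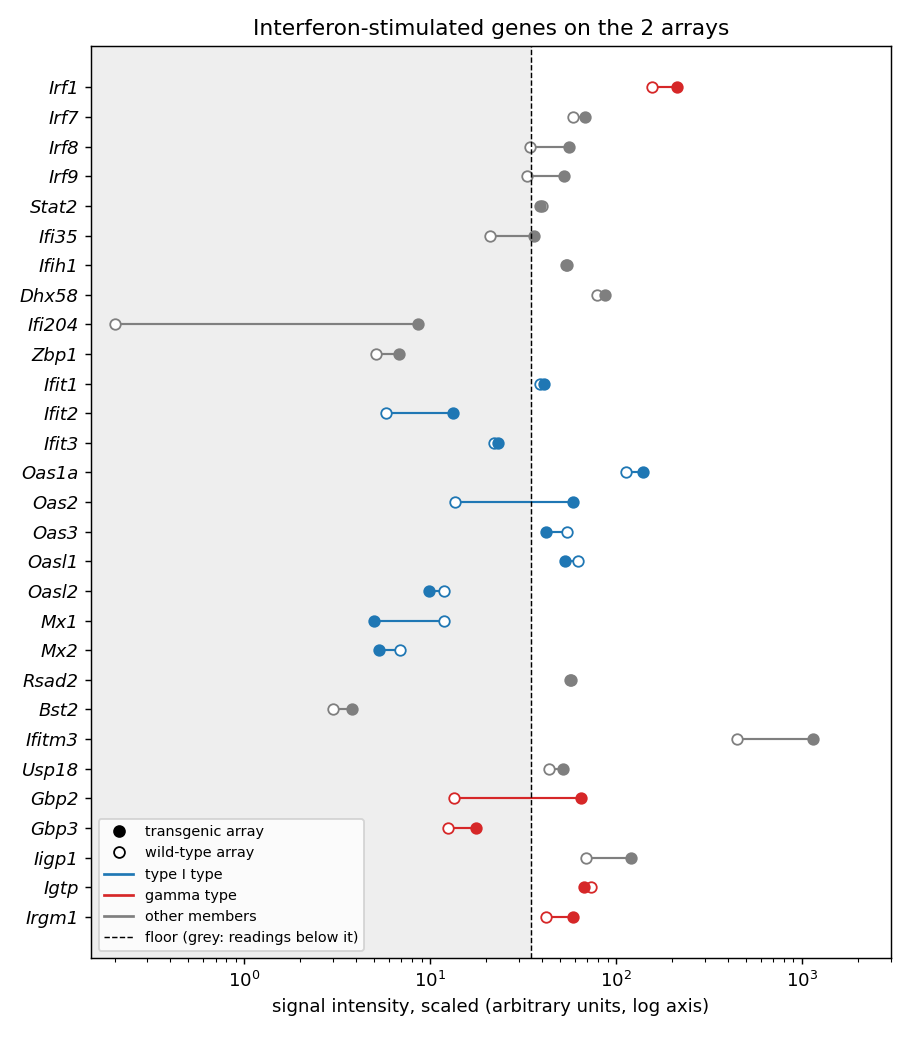
Signal of each of the 29 members with a probe set of its own on the transgenic array (filled) and the wild-type array (open), on a log axis, ordered by role from regulators to GTPases; the dashed line is the floor of 34.7 and readings in the grey area are not distinguishable from each other. Signals of different genes are not comparable, and only the 2 points of a line are. Ifitm3 (1149 against 449) shows the widest gap among lines that lie wholly right of the floor, and 9 lines lie wholly left of it.

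Regulators of the response came first. Irf1, an interferon regulatory factor with a GAS match in the promoter shown above, read 212 in transgenic and 156 in wild-type skin, 1.36-fold higher (log2 ratio 0.44). Irf8, a factor of myeloid cell development, read 55.7 against 34.4, and since the wild-type signal lay just under the floor the difference is at least 1.61-fold. Its second probe set, 30.1 against 9.4, lay below the floor on both arrays. Irf9, the DNA-binding partner of Stat2, read 52.2 against 33.3, a log2 ratio of at least 0.59. The value of Irf1 exceeded the technical SD, while Irf8 and Irf9 are among the members that could only differ upward. Irf7, which amplifies type I interferon production, read 67.9 against 58.9 (log2 ratio 0.21), and Stat2 39.2 against 40.2 (-0.04), both within that SD. The other probe set of Stat2 lay below the floor at 4.0 and 6.0. Ifi35, an interferon-induced leucine zipper protein, read 36.4 against 21.1, which bounds the ratio at only 1.05-fold or more.

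Sensors of foreign nucleic acid showed no difference beyond the technical SD where they were measured. Ifih1, the sensor of long double-stranded RNA known as MDA5, read 53.6 against 54.3 (log2 ratio -0.02). Dhx58, the regulatory helicase LGP2, read 87.0 against 79.0 (0.14), and its other 2 probe sets lay between 2.3 and 5.4. Zbp1, a sensor of left-handed nucleic acids that can trigger cell death, lay below the floor with both probe sets, between 5.1 and 6.8. Ifi204, a DNA sensor of the Ifi200 family, lay below it too, at 8.6 and 0.2. Ddx58, the RNA sensor RIG-I, had no named probe set.

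Measured type I genes read both higher and lower. Oas enzymes make the oligoadenylates that activate RNase L, and 3 of their genes were measured. Oas2 read 58.5 in transgenic skin against 13.6, below the floor, in wild-type skin. It was thus at least 1.69-fold higher, but could only differ upward. Oas1a read 140 against 113, 1.24-fold higher (log2 ratio 0.31). Oas3 read 42.0 against 54.2, 1.29-fold lower (log2 ratio -0.37). The values of Oas1a and Oas3 exceeded the technical SD (0.27, and 0.30 for signals under 100) by little. Of the Oas-like genes, Oasl1, a restraint on the translation of Irf7, read 53.2 against 62.4 (-0.23), and Oasl2 lay below the floor at 9.9 and 11.8. Ifit1 read 40.8 against 38.9 (log2 ratio 0.07), so the gene with 3 ISRE matches shown above was nearly level. Its relatives Ifit2 (13.2 and 5.8) and Ifit3 (23.2 and 22.1) lay below the floor, as did the antiviral GTPase genes Mx1 (5.0 and 11.8) and Mx2 (5.3 and 6.9). Isg15, a ubiquitin-like modifier, shared its only probe set with the gene Gm9706, and Oas1g had none that was named, so neither has a value here. In all, 5 of the 12 type I genes were measured, with log2 ratios from -0.37 to at least 0.75 and a median of 0.07. Over the 4 above the floor on both arrays the median was -0.08.

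Of the 3 gamma genes above the floor on both arrays, Irf1 and Irgm1 read higher and Igtp lower. Among all such genes 43.2% read higher. The other measured gamma gene, Gbp2, passed the floor on the transgenic array only and so had to differ upward. Gbp2, a guanylate-binding protein that attacks the membranes around pathogens, read 64.9 against 13.5, at least 1.87-fold higher. Its second probe set read 29.1 against 7.3, below the floor on both arrays. Irgm1, an immunity-related GTPase that governs the others of its family, read 58.7 against 41.9, 1.40-fold higher (log2 ratio 0.49). Igtp, another regulatory GTPase of that family, read 67.2 against 73.7, 1.10-fold lower (-0.13). With Irf1 (0.44) the median of the 4 was 0.47, and over the 3 above the floor on both arrays it was 0.44. Gbp3 lay below the floor (17.7 and 12.5), and Gbp4 shared its only probe set with Gbp8. The median of the type I group was lower than that of the gamma group by 0.40 on the log2 scale, a difference between 5 and 4 genes on 1 pair of arrays that could not be tested. Each of these 2 medians includes a bound that could only point upward, Oas2 or Gbp2. Above the floor on both arrays the medians were -0.08 for 4 type I genes and 0.44 for 3 gamma genes. The ranges of those genes overlapped, with Oas1a at 0.31 against Igtp at -0.13. A floor at the 60th percentile left 1 type I and 2 gamma genes, and the difference turned to 0.12.

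**Figure D2:**
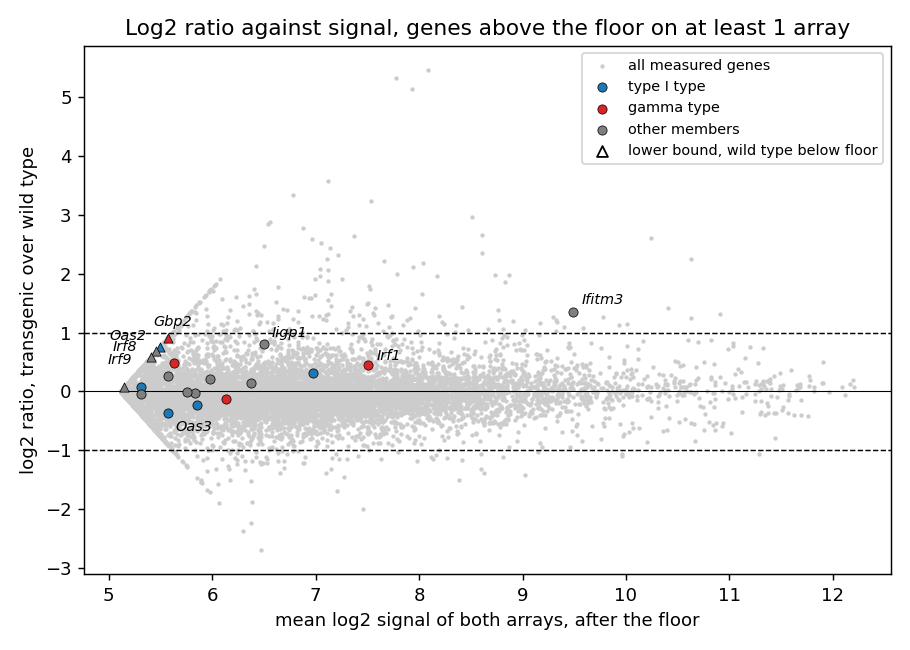
Log2 ratio, transgenic over wild type (vertical), against the mean log2 signal of both arrays after the floor (horizontal) for all 8894 measured genes (grey) and the 20 measured members (coloured by group; triangles are lower bounds with the wild-type signal below the floor); dashed lines mark 2-fold. Ifitm3 is the only member outside the dashed lines, and the 5 triangles lie on the edge that the floor gives to the cloud.

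Among the effectors in neither group, Ifitm3, a membrane protein that blocks the entry of viruses through endosomes, read 1149 in transgenic and 449 in wild-type skin. It was 2.56-fold higher (log2 ratio 1.36), with both signals far above the floor, and stood 92nd from the top of the 8894 measured genes. Its close relatives Ifitm1 (238 against 81.6, 2.92-fold higher) and Ifitm2 (900 against 536, 1.68-fold higher) read higher too, and were placed beside it after their values were seen. Whether the probe sets of these similar genes bind each other's transcripts was not tested. Iigp1, an immunity-related GTPase induced by both kinds of interferon, read 120 against 68.6, 1.75-fold higher (log2 ratio 0.81). The name of that probe set carries a letter suffix, the mark of one that can match several transcripts, as do those of Irf1, Irf7 and Irf9. All of these carry the letter a. Suffixed probe sets also stood for genes of the lists below, among others Stat3, Ifnar2 and Cd74 (letter a), H2-Ab1 (letter s), and Socs3, H2-Aa and Krt14 (letter x). The unmarked probe set of Iigp1 lay below the floor at 18.4 on both arrays. Rsad2, the gene of viperin, which makes an antiviral nucleotide, read 56.3 against 57.5 (log2 ratio -0.03), and its other 2 probe sets, below the floor, also read alike (29.9 and 30.2, 27.8 and 27.5). Usp18, which removes Isg15 from proteins and damps signalling at the type I receptor, read 52.1 against 43.6 (0.26). Bst2, the virus tether tetherin, lay below the floor at 3.8 and 3.0, and Ifi44 had no named probe set.

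At a limit of 1.5-fold the members higher on the transgenic array were Ifitm3, Gbp2, Iigp1, Oas2, Irf8 and Irf9. These 6 of 20 stand against 6.80% of all measured genes, but 4 of them (Gbp2, Oas2, Irf8 and Irf9) are bounds of the kind that had to differ upward. None was lower by that much, against 6.38% of all measured genes.

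Other genes of the pathway were taken from lists made with earlier results of these data known. Few ligands were measured. Of 10 ligand genes with a probe set, 8 were under the floor in both samples, among them Ifnb1 (33.9 and 26.3) and Ifng (5.7 and 9.6). The other 2, Ifna2 (26.4 against 41.6) and Ifnab (17.0 against 38.4), were above it on the wild-type array only, and the keratinocyte interferon gene Ifnk had no named probe set. The receptor genes Ifnar2 (106 against 59.3, log2 ratio 0.84), Ifngr1 (238 against 156, 0.61) and Il10rb (145 against 95.1, 0.60) read higher. Their partners Ifnar1 (55.4 against 56.9, -0.04) and Ifngr2 (77.8 against 92.1, -0.24) did not, so neither receptor was higher in both chains. Among the kinases and factors, 1 of 6 measured was at least 2-fold higher (2.27% among all measured genes), Stat3 (371 against 156, log2 ratio 1.25), the factor of interleukin-6 type cytokines. Jak1 read 297.5 against 161 (0.89), Tyk2 141 against 147 (-0.06) and Irf5 61.4 against 71.2 (-0.21).

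Of 12 measured genes on a list made for restraint of the response, which also holds the nuclease gene Isg20, 1 was at least 2-fold higher. This stands beside the same 2.27%. Socs3, the feedback inhibitor of Stat3 signalling, read 73.5 against 27.9 (at least 2.12-fold, a bound that could only point upward), while Socs1, the inhibitor of interferon signalling, read 39.5 against 47.2 (log2 ratio -0.26). The nuclease gene Isg20 (0.63) was the next highest of that list and Pias3 (-0.37) the lowest. Of 10 measured genes of nucleic acid sensing none was past 2-fold in either direction. Myd88, the adaptor of Toll-like receptors, was highest (208 against 127, log2 ratio 0.71), followed by Tlr8 (0.58). Mavs, the mitochondrial adaptor of RIG-I and MDA5, was lowest (48.0 against 68.8, -0.52), followed by Tbk1 (-0.01).

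Of a list of 66 further interferon-stimulated genes 29 were measured. Of these 29 genes 7 were at least 2-fold higher and none lower by that much, with a median log2 ratio of 0.62, beside 2.27% higher among all measured genes and a median of -0.05. In 8 of the 29 the ratio is a bound, and 3 of the 7 called genes were above the floor on the transgenic array only and so had to differ upward. Of the 21 above it on both arrays 4 were called, against 2.03% of all such genes. The highest values were those of Ifi27l2a (113 against 22.1, at least 3.24-fold) and Ifitm1 (2.92-fold), an order that the bounds do not settle. The lowest were Wars1 (149 against 174, log2 ratio -0.22) and Daxx (321 against 355, -0.15). Without suffixed probe sets 4 of 24 were called higher, and 2 of 18 were with a floor at the 60th percentile.

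**Figure D3:**
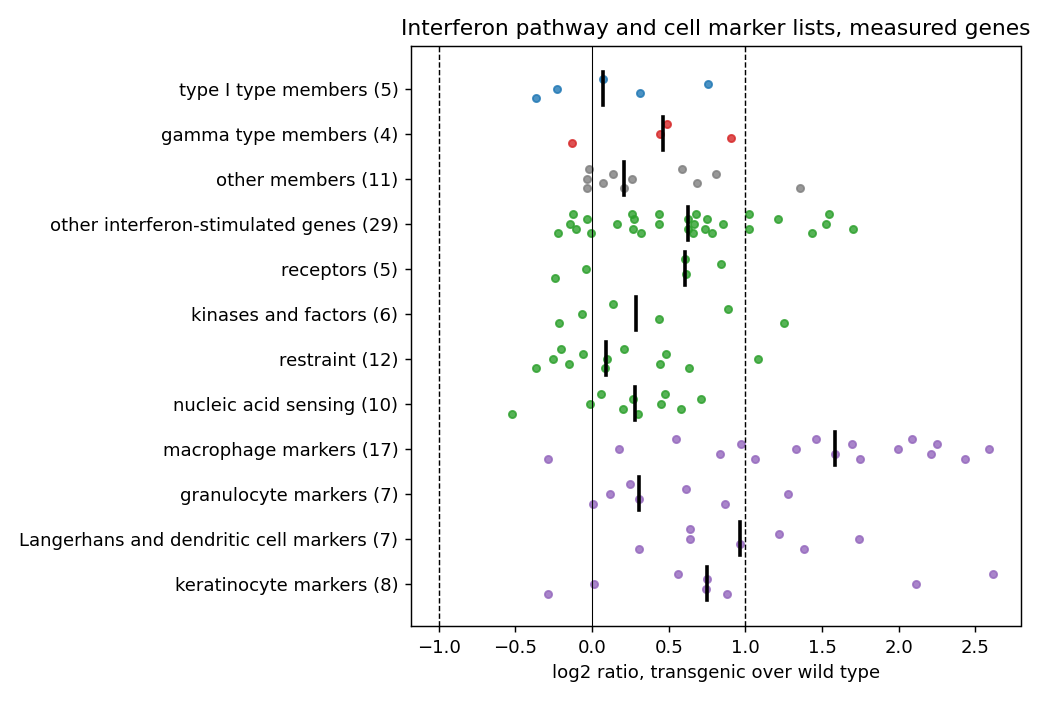
Log2 ratios, transgenic over wild type, for the measured genes of each group (points, with the number in brackets) and their median (black bar); blue, red and grey are members, green other genes of the pathway and purple cell markers; dashed lines mark 2-fold, and ratios with 1 array below the floor are drawn at their bound. The type I bar lies near 0 (0.07), the gamma bar at 0.47, the further interferon-stimulated genes at 0.62 and the macrophage markers at 1.58.

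Most measured markers of macrophages, and part of the Langerhans and dendritic cell list, also read higher on the transgenic array. Of 19 macrophage markers with a probe set, 17 were measured. Of these 12 read higher by 2-fold or more and none lower, beside 2.27% and 1.09% of all measured genes. Of the 12, 3 were bounds with the wild-type signal below the floor, and of the 13 markers above it on both arrays 9 were called, against 2.03% of all such genes. The median log2 ratio was 1.58 over the 17 measured markers and 1.75 over the 13. The signals of all 19 macrophage markers summed to 3811 in transgenic and 1185 in wild-type skin. Such sums, here and below, are weighted to the brightest probe sets and include readings below the floor. In whole skin a larger number of cells and more RNA per cell cannot be told apart. The part of these cells in the readings of Gbp2, Irf8, Ifitm3 and the others was not tested. The 7 measured Langerhans and dendritic cell markers had a median of 0.97 (summed signals 2995 and 1451 over 11 genes). At least 2-fold higher were 3 of the 7, Cd74, H2-Aa and H2-Ab1, beside 2.27% of all measured genes. All 3 were among the 5 above the floor on both arrays, against 2.03% of all such genes. Itgax and Xcr1 were bounds that could only point upward. Cd207, the Langerhans cell lectin, lay below the floor at 11.4 and 11.1, as did Flt3 (13.7 and 23.8), Batf3 and Ccr7. Granulocyte markers had a median of 0.31 over 7 measured genes (summed signals 603 and 360). Of these, 2 were bounds that could only point upward, Csf3r and Camp, and the median of the other 5 was 0.61. Ngp (155 against 64.0) was the 1 of the 7 at least 2-fold higher, beside 2.27% of all measured genes. Above the floor on both arrays it was 1 of 5, against 2.03% of all such genes. Of 12 markers of T and natural killer cells, the known sources of interferon gamma, 2 were measured, with the genes of the CD3 chains, Cd4 and Cd8a below the floor on both arrays, and their summed signals were 634 and 493. That sum rests on Zap70 (445 and 267). The other 11 summed to 189 and 226, but of these only Nkg7 passed the floor, so the sums show no measured difference. Nkg7 lay below the floor in transgenic skin and at 50.9 in wild-type skin (log2 ratio at most -0.55), and so could only differ downward. The 4 measured B cell markers had a median of -0.09 (summed signals 314 and 311 over 7 genes). Markers of plasmacytoid dendritic cells, known sources of type I interferon, had a median of -0.18 over 4 measured genes (summed signals 409 and 475), a list that includes the members Irf7 and Bst2. Most of that sum came from Tcf4 (154 and 196) and Cox6a2 (121 and 154). Whether these genes report plasmacytoid cells in whole skin was not tested. Of 9 keratinocyte markers with a probe set 8 were measured. Krt5 read 2754 and 1868, Krt14 3328 and 1987 and Krt1 2992 and 489 in transgenic and wild-type skin. Cdh1 was level (613 and 607, log2 ratio 0.02) and Trp63 read lower (358 and 437, -0.29). Krt2 lay below the floor at 16.7 and 13.4, and the 8 measured keratinocyte markers had a median of 0.75.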

How the data were processed

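Biotin-labelled total RNA was hybridised to 1-colour arrays, per the labels. The authors deposited linear signal intensities for each probe set, made with software not named in the labels. The 2% trimmed mean was 100.03 on both arrays, so values were scaled before deposit. Of 22690 probe sets, 64 were controls, 20380 had 1 gene in the platform annotation of 2016, and 691 with several and 1555 with none were not named. Symbols were updated through gene identifiers of GRCm38.p6. Signals were scaled to equal trimmed means, raised to the floor (34.7) and put on the log2 scale, and the probe set with the larger sum of both signals stood for its gene. Calls were made at 2-fold. Promoter sequences came from RefSeq. Python 3.11.15, numpy 2.4.6 and pandas 2.3.3 were used, and the calculation was tested on simulated data. Every member is named, with the 2 highest and 2 lowest genes of each pathway list and the main ligands and receptors. A gene that the rule also named is not reported here. The members and lists were chosen with earlier results of these data known. Alternatives covered scaling, centring, normalization, floor, probe set choice and fold limit. The number of arrays limits the precision.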

Additional observations from a re-analysis of the deposited data

How the results depend on the processing

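Under values as deposited, median centring, quantile normalization, lowess centring, the mean over probe sets and the omission of suffixed probe sets, Ifitm3 was the 1 member called higher and none was called lower. Leaving out suffixed probe sets kept 16 members measured. A floor at the 20th percentile (11.9) gave 3 members called higher, as did a pseudocount of 16 without any floor (Gbp2, Ifitm3 and Oas2). At that lower floor the log2 ratios were 2.27 for Gbp2 and 2.10 for Oas2, above that of Ifitm3 (1.36), and with the pseudocount 1.46, 1.33 and 1.33. Limits of 1.5-fold and 3-fold gave 6 and 0 higher. A floor at the 60th percentile (70.7) left 6 members measured, the gamma median was 0.19 and the type I minus gamma difference was 0.12 (main value -0.40). That floor left 2 gamma and 1 type I genes. The other alternatives moved the group medians by less than 0.27, as did counting genes by the mean of both arrays, chosen after seeing the data. That value is the technical SD of 1 probe set and not an error of a median. Without suffixed probe sets the median of the members was 0.10 (main value 0.23). With the pseudocount the type I median was -0.03 (main value 0.07). No paired analysis was possible because there is 1 array per group. Of the 20 measured members 16 had signals under 100 on both arrays, and for 5 the arrays give only bounds.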
